A study of Mus musculus with 12 samples.

Results

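The early effect of losing the taurine transporter was measured in tibial anterior muscle of young mice, in 3 arrays labelled TauTKO-Young and 3 labelled WT-Young. These are the 6 young samples among the 12 of the series, and the other 6 come from old mice of 18 months. All young mice were males of the strain C57BL6 aged 3 months. The TauTKO mice carry a knockout of TauT, which is encoded by Slc6a6, and the wild-type (WT) mice came from the same crosses of heterozygous parents. The knockout is not restricted to muscle, so a difference in muscle may start there or elsewhere. Each array held the RNA of 1 sample. P-values and standard errors (SE) rest on the spread between samples within the 4 groups of the series, old mice included. In RNA of whole muscle, fewer cells of a type and less RNA per cell cannot be told apart.

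Taurine is an amino sulfonic acid that skeletal muscle holds at a high concentration. It serves as an organic osmolyte, stabilises proteins and membranes, and is attached to certain mitochondrial tRNAs. Muscle takes most of it from blood through TauT, a sodium and chloride dependent carrier of the plasma membrane. Muscle lacking the carrier must hold its volume and ion balance with other solutes.

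Signals are given on the log2 scale relative to the spot at the 75th percentile of the same array, so that 0 is that spot's brightness. A probe was tested when the scanner software marked its signal as well above background on every array of the young WT or of the young TauTKO group, which gave 37823 probes. Of these, 34581 were well above background on all 6 young arrays. Between 65.4% and 73.6% of all probes were well above background on a young array, and all 6 arrays lay on 1 slide. Signals correlated at 0.9832 to 0.9897 within WT and at 0.9921 to 0.9928 within TauTKO. The 16 skeletal muscle marker genes were all measured, with a summed signal of 10900 to 12000 times the 75th percentile spot in WT and 9890 to 10700 in TauTKO.

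A probe was called when its fold was at least 1.8 and its adjusted p was under 0.05 by limma, with Benjamini-Hochberg adjustment over all tested probes. In young muscle 147 of 37823 probes were called, which is 0.389%. Higher signals in TauTKO made up 77 of them (0.204% of the tested) and lower signals 70 (0.185%). Of the 147, 137 were well above background on all 6 young arrays, 5 were tested only through TauTKO and 5 only through WT. The folds of the 147 were 1.8 or more, with a median of 2.21. The highest of these, that of Mucl1, rests on signals partly at background, so its size is not given. The 99 called probes with a gene symbol stood for 86 genes, of which 53 were higher and 33 lower. The groups did not overlap for any of the 147, whereas 22.9% of all tested probes had groups that did not overlap. Without a fold threshold 353 probes passed the adjusted p, 193 higher and 160 lower. The median difference over all tested probes was -0.03 on the log2 scale.

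**Figure D1:**
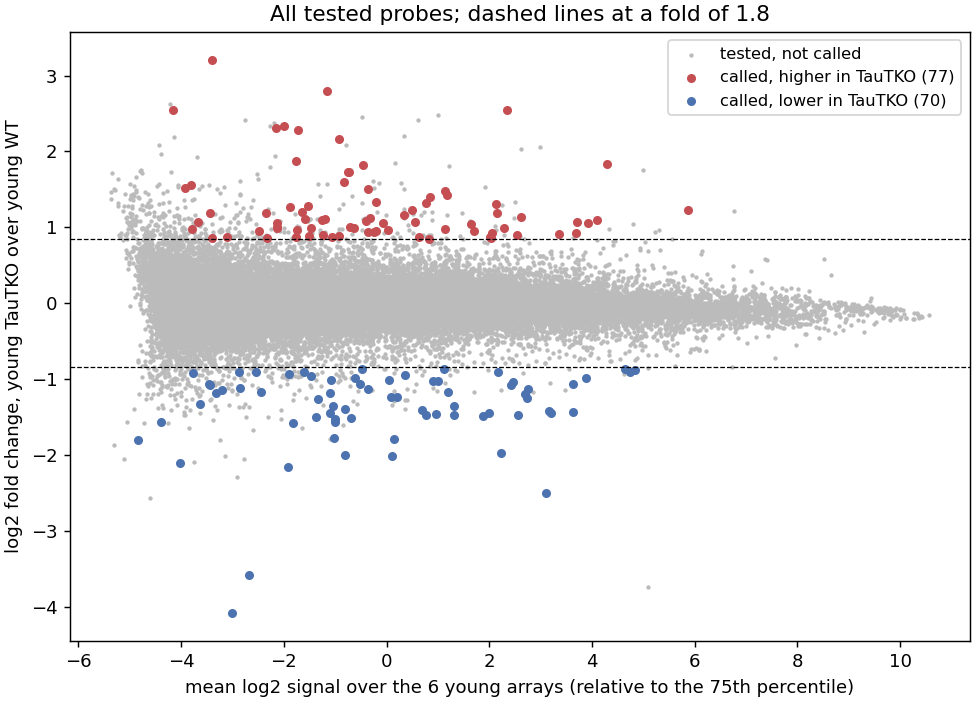
Log2 fold change of young TauTKO over young WT (vertical axis) against the mean log2 signal over the 6 young arrays (horizontal axis), 1 point per tested probe, with dashed lines at a fold of 1.8. The 77 probes called higher (red) and the 70 called lower (blue) lie at low, middle and high signals, while the brightest probes lie close to 0.

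The number of calls rested on every array. Leaving out WT replicate 1, 2 or 3 left 26, 93 or 51 calls, and leaving out TauTKO replicate 1, 2 or 3 left 85, 23 or 58. With the row on the slide as a block, since each row held arrays of both genotypes, 44 probes were called, 37 of them among the 147. Of the 30 genes named below for their size, 8 kept their call with this block (Rab15, Srgap3, Paqr7, Morn4, Hmgn2, Asb10, Clec18a and Mgst1) and 22 lost it. Slc38a2 lost it too (adjusted p = 0.0625). Across these 6 fits 17 probes were called every time, and they include 8 genes with a symbol: Rab15, Paqr7, Acot9 and Zfp985, which were higher, and Morn4, Asb10, Hmgn2 (on another probe than the one named for its size) and Mgst1, which were lower. In none of the 6 fits were 50 of the 147 called, and these include 12 of the 30: Snph, Srgap3, Fxyd2, Ranbp3l, Efcab12, Spink11, Phyhd1, Ear12, Clec18a, Cacna2d4, Cntnap2 and Golm1.

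Slc6a6 itself gave log2 signals of 2.62, 2.16 and 2.38 on the WT arrays and 3.48, 3.12 and 2.92 on the TauTKO arrays. All 3 arrays labelled TauTKO were the higher ones, without overlap. The difference of 0.79 ± 0.19 (SE) had an adjusted p of 0.093 and was not called. In old mice it was 0.85 and was called (adjusted p = 0.028). The probe lies at chr6:91708620-91708679 of mm9. Which part of the gene was deleted is not given in the sources used here, so the probe does not check the labels. Within 10 Mb of it on either side 2 of 378 tested probes were called. They are Fbln2, which was higher and is described with the matrix genes, and Nup210, a nuclear pore protein, which differed by -0.91 ± 0.12 (SE; adjusted p = 0.0145), while its brighter second probe differed by -0.34 without being called. The called probes lie at chr6:91222118-91222177 (Fbln2) and chr6:91035854-91035913 (Nup210), both close to the Slc6a6 probe. Whether this position bears on their differences was not tested. Chromosome 6 held 5.32% of the tested and 7.48% of the called probes.

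Other carriers of small amino acids and osmolytes were the next members of the pathway. Slc38a2, the SNAT2 carrier that brings neutral amino acids into cells and is known to respond to hypertonic stress, gave 3.58, 3.57 and 3.53 in WT and 4.67, 4.81 and 4.48 in TauTKO. The 3 WT arrays lay within 0.1 of each other and below every TauTKO array, and the gene rose by 1.1 ± 0.15 (SE; adjusted p = 0.0136). Slc6a9, the glycine transporter GlyT1 of the same carrier family as TauT, was measured by a pair of probes. The called one gave 1.26, 0.90 and 1.5 in WT and 2.41, 2.01 and 2.11 in TauTKO, a rise of 0.95 ± 0.16 (SE; adjusted p = 0.0304). Its brightest probe differed by 0.80 with an adjusted p of 0.064. Slc6a8, the creatine transporter, ran the other way. It gave 5.38, 5.26 and 5.29 in WT and 4.77, 4.81 and 4.64 in TauTKO, and the difference of -0.57 ± 0.11 (SE) passed the adjusted p (0.0412) but not the fold. All 3 TauTKO arrays were below all 3 WT arrays.

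The list of taurine synthesis and osmolyte handling held 18 tested genes. By the brightest probe of each gene, 12 had a positive and 6 a negative difference, with a median of 0.14, and 1, Slc38a2, was called. Over all 15888 genes taken this way the median was -0.015, and 74 were called, which is 0.466%: 0.29% higher and 0.176% lower. Cdo1, which makes the taurine precursor cysteine sulfinate, and Csad, which decarboxylates it, differed by 0.31 (adjusted p = 0.89) and 0.21 (adjusted p = 0.69). The betaine carrier Slc6a12 differed by 0.18 (adjusted p = 0.82) and the GABA and taurine carrier Slc6a13 by -0.54 (adjusted p = 0.63). None of these 4 passed the test. Fxyd2, the gamma subunit that tunes the sodium pump, was outside the list. It gave 0.28, -0.05 and 0.19 in WT and 1.23, 1.76 and 1.64 in TauTKO, and rose by 1.4 ± 0.24 (SE; adjusted p = 0.0318). A second Fxyd2 probe differed by 1.19 (adjusted p = 0.0725).

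The largest rise among named genes measured on all 6 arrays was that of Rab15, a small GTPase of endosome recycling. It gave 1.19, 1.48 and 0.54 in WT and 3.48, 3.85 and 3.51 in TauTKO. The lowest TauTKO array stood 2 log2 units above the highest WT array. The difference was 2.54 ± 0.22 (SE), a fold of 5.83, with an adjusted p of 0.00411. Its probe is at chr12:77898991-77899050 of mm9, and a second Rab15 probe differed by 0.94 without being called. Tnfrsf12a, the Fn14 receptor of the cytokine TWEAK, gave 3.27, 3.28 and 3.60 in WT and 4.66, 5.82 and 5.17 in TauTKO, a fold of 3.57 (adjusted p = 0.0158). The TauTKO arrays were more spread than the WT arrays but did not reach them.

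Next in size came a group of genes with differing roles. Olfm1, a secreted olfactomedin glycoprotein, rose by 1.73 on the leading probe and by 1.23 to 1.33 on its other 3 probes, all 4 of which were called. Snph, which anchors mitochondria in axons, rose by 1.73 ± 0.30 (SE; adjusted p = 0.0332). Srgap3 gave -1.61, -1.66 and -1.61 in WT and -0.02, 0.07 and -0.13 in TauTKO. The arrays of each genotype were nearly equal. It rose by 1.6 ± 0.27 (SE; adjusted p = 0.0292), though its other 2 probes differed by 0.04 and 0.44 and were not called. Fbxo2, a ubiquitin ligase subunit that binds glycoproteins, rose by 1.5 ± 0.20 (SE; adjusted p = 0.0123).

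Paqr7, a membrane progestin receptor, gave 0.32, 0.46 and 0.43 in WT and 1.96, 2.06 and 1.63 in TauTKO. It rose by 1.48 ± 0.14 (SE; adjusted p = 0.00513), the smallest error among the 15 genes named for their rise. Gprc5b, an orphan receptor, rose by 1.19 and 1.07 on 2 probes. Klhl30, a kelch protein with high signal in this muscle, rose by 1.23 ± 0.18 (SE; adjusted p = 0.0197). The others named by size were Vpreb3 (1.28), Ranbp3l (1.27), Efcab12 (1.2) and Spink11 (1.18), of which the second Efcab12 probe differed by -0.30. Acot9 and Acot10, acyl-CoA thioesterases of mitochondria, rose by 1.04 and 1.17. These 2 sequences are close copies, so their probes may share target. Acot9 and Zfp985, a zinc finger gene of a multigene family that rose by 0.95, were chosen for mention after their values were seen, as was Acot10.

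**Figure D2:**
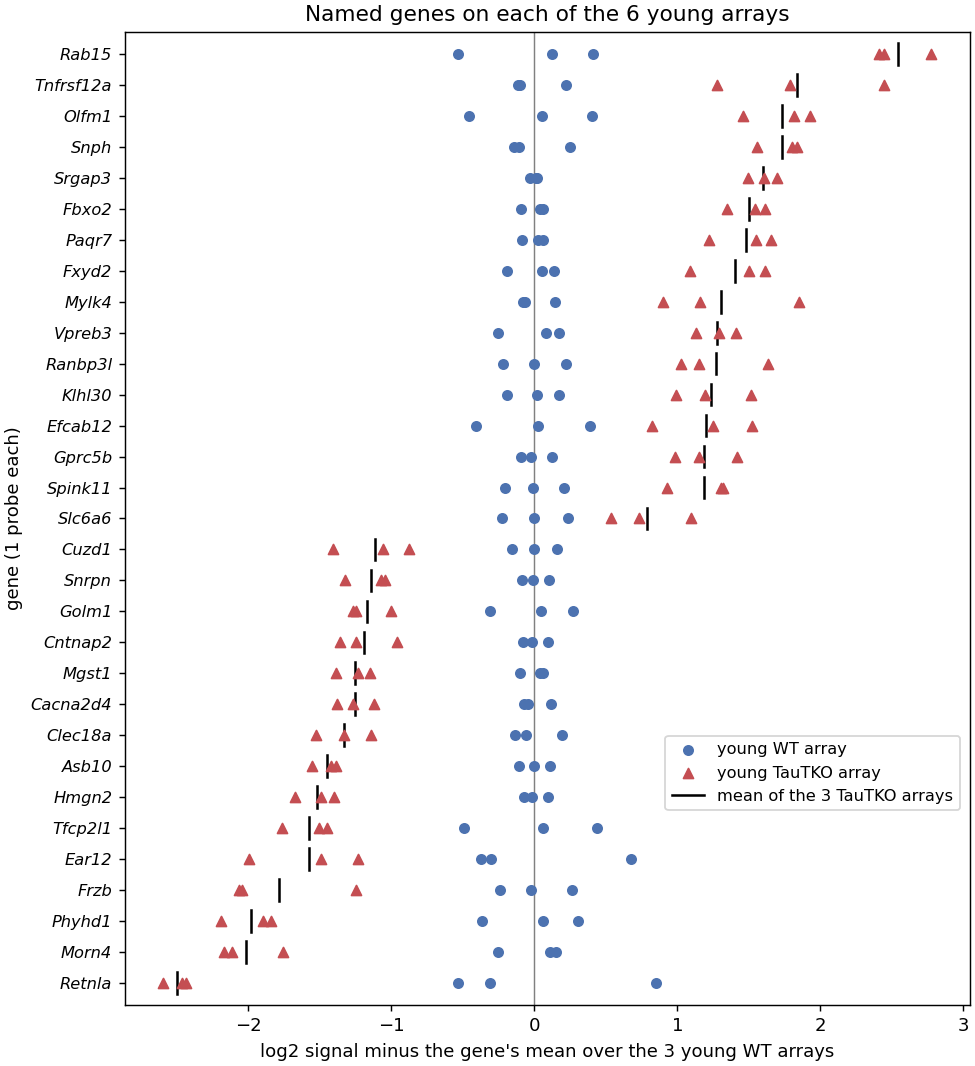
Log2 signal of 31 genes on each young array (horizontal axis, relative to the gene's own mean over the 3 WT arrays), with 1 probe per gene in order of the difference. Blue circles are the 3 WT arrays, red triangles the 3 TauTKO arrays and bars the TauTKO means. Genes other than Slc6a6 were picked among probes whose genotypes do not overlap, and those of Slc6a6 do not overlap either.

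Genes that fell were led by Retnla among those measured on all 6 arrays. Retnla encodes resistin-like alpha, a secreted protein known from alternatively activated macrophages and fat. It gave 4.04, 5.20 and 3.81 in WT and 1.75, 1.91 and 1.88 in TauTKO. The 3 TauTKO arrays were tightly grouped and WT replicate 2 was the highest. The fall of -2.50 ± 0.35 (SE) corresponds to a fold of 5.66 (adjusted p = 0.0155). Morn4, a MORN repeat protein, gave 0.85, 1.26 and 1.22 in WT and -1.01, -0.65 and -1.06 in TauTKO. Both of its probes fell by about the same amount, -2.02 and -2.00, with adjusted p = 0.00284 for the first. Asb10, a substrate adaptor of ubiquitin ligases, gave 3.92, 3.82 and 4.04 in WT and 2.37, 2.54 and 2.50 in TauTKO, and fell by -1.45 ± 0.12 (SE; adjusted p = 0.00284) on 1 probe and -1.43 on the other.

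Hmgn2, a nucleosome binding protein, fell by -1.39 to -1.52 on all 4 of its probes. The gene has many near-identical copies in the genome, and the signals cannot be assigned to 1 copy. Mgst1, a microsomal glutathione transferase, gave 3.41, 3.43 and 3.27 in WT and 2.14, 2.22 and 1.98 in TauTKO, and fell by -1.26 ± 0.12 (SE; adjusted p = 0.00513). Phyhd1, a dioxygenase, fell by -1.98 on 1 probe while a second differed by -0.07. Tfcp2l1, a transcription factor of epithelia, fell by -1.57 and -1.17 on 2 probes. Smaller falls were those of Clec18a (-1.33), Cacna2d4 (-1.26), Cntnap2 (-1.19), Golm1 (-1.17), Snrpn (-1.15) and Cuzd1 (-1.12). Other probes of Clec18a differed by -0.14 and -0.81 without being called, and other probes of Snrpn by -0.80 and -0.83, which passed the adjusted p but not the fold.

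Some called genes were not measured on every array. Ms4a8a, a membrane protein of the MS4A family, was not well above background on any TauTKO array and was at least 2.54-fold lower there. It was tested only through the WT arrays, so its call is a description. The bound compares the WT mean with the lowest measurable signal on the TauTKO arrays. After normexp background correction its difference was -0.48 (adjusted p = 0.0601) and it was not called. Mucl1, a small mucin-like protein of glandular epithelia, was well above background on 3 WT arrays and on only 1 or 2 TauTKO arrays, depending on the probe. The first probe gave -0.90, -0.00 and -1.99 in WT, and the WT arrays were thus widely spread. Its TauTKO signals were partly at background, so the size of its difference is not given. Slc22a7, an organic anion transporter, was measured on 1 TauTKO array, and Slc25a2, a mitochondrial ornithine carrier, on 2 of 3 WT arrays. Their differences were -0.54 and 0.41 after normexp correction and were not called there, so their sizes depended on the background correction. Mucl1, Slc22a7 and Slc25a2 were chosen after their values were seen.

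Without a gene symbol were 48 called probes, 20 higher and 28 lower, and 19 of them target transcripts named on the array by coordinates in mm9. The transcript at chr2:113880070-113887230 was called as higher on all 3 of its probes, with a rise of 2.28 and 2.80 on 2 of them. The third was well above background on only 1 WT array, so the size of its difference is not given. The one at chr12:16003706-16022581 was called as higher. Its probe was well above background on only 1 WT array, and 1 WT value was left out as an outlier. It was tested only through the TauTKO arrays, so its call is a description and the size of its difference is not given. Probes for 2 overlapping spans on chromosome 5, the longer at chr5:22887983-22939658, rose by 2.34 and 2.31. The 3 probes for 2 overlapping spans, the longer at chr7:67111261-67120697 fell by -0.98 to -1.13, and the called Snrpn probe lies at chr7:67127426-67127485. Another 3 probes, for spans at chr4:119963954-119976499 and chr4:119967625-119978325, fell by -1.19 to -1.51. These transcripts were chosen after their values were seen.

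Extracellular matrix genes, which build the connective tissue around muscle fibres, were nearly all higher. Of 42 matrix genes, 41 were higher in TauTKO, and 27 of these had groups that did not overlap, as did 13.1% of all genes in that direction. The median difference was 0.68 and the range -0.00 to 2.45. Summed signals were 915 to 1060 in WT and 1200 to 1370 in TauTKO, without overlap. With 1 array left out the median ran from 0.60 to 0.80, and under other scalings from 0.60 to 0.72. Only 4 matrix genes were called, all of them higher, against 0.29% of all genes. With 1 array left out, Fbln2, Loxl4 and Col8a1 were each called in 1 of 6 fits and Lum in 0, and none of the 4 was called with the row on the slide as a block.

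Those 4 were Fbln2, Lum, Loxl4 and Col8a1, of which Fbln2 lies close to Slc6a6 on chromosome 6. Fbln2, the fibulin 2 of basement membranes and elastic fibres, gave 3.15, 3.17 and 3.21 in WT and 4.11, 4.35 and 4.28 in TauTKO. WT arrays differed by less than 0.1 and the gene rose by 1.07 ± 0.16 (SE; adjusted p = 0.0176). Lum, the collagen binding proteoglycan lumican, gave 3.15, 3.34 and 3.23 in WT and 4.30, 3.88 and 4.30 in TauTKO, and rose by 0.92 ± 0.17 (SE; adjusted p = 0.0378). Loxl4, a collagen crosslinking oxidase, rose by 1.01 on its brightest probe (adjusted p = 0.0368) and differed by 0.80 on another that was not called. Col8a1, a short chain collagen of vessel walls, rose by 0.99 (adjusted p = 0.0457). Plod2, the lysyl hydroxylase of collagen crosslinks, was outside the list and rose by 0.87 (adjusted p = 0.0291), as chosen after its value was seen.

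Fibrillar collagens missed the threshold. Col1a1 gave 5.64, 6.05 and 5.71 in WT and 6.38, 6.41 and 6.70 in TauTKO, with a difference of 0.69 ± 0.15 (SE; adjusted p = 0.067). Col3a1 differed by 0.84 (adjusted p = 0.088) and Col1a2 by 0.56 (adjusted p = 0.11). Postn, the matrix protein periostin, differed by 1.54 but gave 2.36 on WT replicate 2 and 0.58 and 0.48 on the others, against 2.37 to 2.88 in TauTKO (adjusted p = 0.32). WT replicate 2 was thus close to the TauTKO arrays for this gene. Cilp, a cartilage and fascia matrix protein, gave 1.94, 2.09 and 1.48 in WT and 3.24, 3.24 and 3.04 in TauTKO, a difference of 1.33 ± 0.28 (SE; adjusted p = 0.063).

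Markers of osteoclasts and bone were also measured, since bone tissue could be held in the sample. Of 13 tested, 9 had a positive difference and 4 a negative one. The median was 1.24, and their summed signal was 7.66 to 19.0 in WT and 19.3 to 42.6 in TauTKO. Sost, a defining gene of osteocytes, was not well above background in either group. Acp5, the acid phosphatase of osteoclasts, gave 1.49, 3.23 and 1.16 in WT and 4.61, 3.33 and 4.13 in TauTKO (difference 2.06, adjusted p = 0.2). Ctsk, the collagenase cathepsin K, differed by 1.12 (adjusted p = 0.09). WT replicate 2 was again the highest WT array for both. Ibsp (1.85), Mmp9 (1.64) and Bglap (1.24) did not pass the test either, and no list member was called. The median was 0.30 after normexp background correction. Pth1r, the parathyroid hormone receptor of bone and kidney and no member of the list, was called with a rise of 0.94 (adjusted p = 0.0355). It was chosen after its value was seen. The part of bone tissue in the matrix values was not tested.

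Tendon and cartilage markers had 10 of 13 higher, a median of 0.26 and no call, with summed signals of 37.3 to 48.0 in WT and 36.7 to 60.5 in TauTKO, which overlap. Scx, the tendon transcription factor, differed by 0.69 (adjusted p = 0.22) and the cartilage collagen Col9a1 by -1.2 (adjusted p = 0.056), with 0.31 on a second Col9a1 probe. Endothelial, pericyte and smooth muscle markers had 13 of 15 higher, a median of 0.19 and no call, with summed signals of 92.6 to 99.9 and 99.3 to 120. Pecam1 and Cdh5, junction proteins of endothelium, differed by 0.19 (adjusted p = 0.54) and 0.31 (adjusted p = 0.36). The 2 groups' ranges overlap for both lists.

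**Figure D3:**
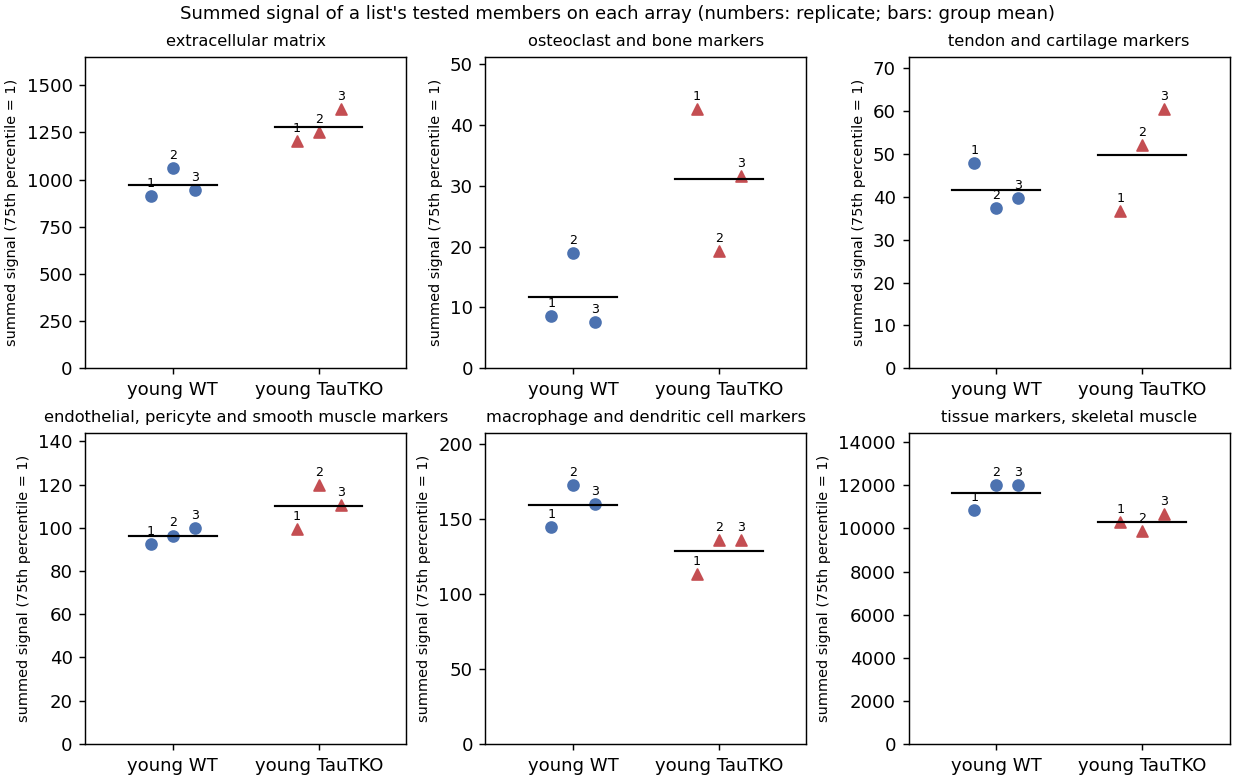
Summed signal of the tested members of 6 gene lists on each young array, with the array's 75th percentile spot as 1 (vertical axes start at 0); blue circles are WT, red triangles TauTKO, numbers the replicates and bars the group means. Matrix signals of 1200 to 1370 in TauTKO lie above the WT range of 915 to 1060, and skeletal muscle markers lie lower, at 9890 to 10700 against 10900 to 12000.

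Among secreted Wnt antagonists and Wnt ligands, 9 of 19 genes were higher and 10 lower (median -0.01), and 1 was called. This was Frzb, a frizzled related antagonist, which gave -0.36, -0.14 and 0.14 in WT and -2.19, -2.17 and -1.37 in TauTKO. TauTKO replicate 3 was the least affected but still below every WT array, and the fall was -1.78 ± 0.29 (SE; adjusted p = 0.0251). Its relative Sfrp4 differed by 1.24 (adjusted p = 0.1), the ligand Wnt4 by -0.81 (adjusted p = 0.08) and Dkk3 by -0.64 (adjusted p = 0.43). Cell cycle and senescence genes were higher in 19 of 24 (median 0.22), with no call. Birc5, a survivin of dividing cells, differed by 1.09 (adjusted p = 0.33) and the proliferation marker Mki67 by 0.85 (adjusted p = 0.45).

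Genes of stretched or stressed Z-discs, where sarcomeres are anchored, were higher in 17 of 23 (median 0.23), and 2 were called. These were Tnfrsf12a and Mylk4, a myosin light chain kinase that gave 1.39, 1.61 and 1.41 in WT and 3.32, 2.63 and 2.37 in TauTKO. Mylk4 rose by 1.30 ± 0.23 (SE; adjusted p = 0.0335). Igfn1, a Z-disc protein, gave -1.95, -1.57 and -1.99 in WT and 0.00, 0.30 and 0.42 in TauTKO. Its difference of 2.08 ± 0.45 (SE) had an adjusted p of 0.070 although the groups lay far apart. Csrp3, the muscle LIM protein, gave 4.74, 4.77 and 2.86 in WT and 5.67, 6.19 and 5.77 in TauTKO (adjusted p = 0.16). WT replicate 3 was the low one. Ankrd1, Fhl1, Cryab and Nrap differed by 1.02, 0.84, 0.57 and 0.23, none called.

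The muscle's own fast fibre and marker genes were slightly lower. Of 18 fast fibre genes 16 were lower (median -0.20), and of the 16 skeletal muscle markers 14 were lower (median -0.20), with none called. Most of these markers are also in the fast fibre list, so the counts are not separate results. Myh4, the fastest myosin of this muscle, differed by -0.20 (adjusted p = 0.43), Tnni2, the fast troponin I, by -0.20 (adjusted p = 0.39) and Myh1 by 0.07 (adjusted p = 0.95). Quantile normalization brought these medians to -0.03 and -0.04, so their size depended on the scaling. Slow fibre genes were higher in 10 of 14 (median 0.21), with none called. Their summed signal ran the other way, at 140 to 266 in WT and 96.8 to 121 in TauTKO. This sum includes Myl3, described below. Myh7, the slow myosin, gave 1.6, -1.12 and -1.05 in WT and 1.88, 1.73 and -0.70 in TauTKO. High and low arrays occurred in both groups.

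Myl3, the slow and cardiac essential light chain, went against its list. It gave 7.32, 7.21 and 6.39 in WT and 3.97, 2.82 and 2.90 in TauTKO, so that the groups were 2 log2 units or more apart. The difference was -3.75 ± 1.07 (SE), with an adjusted p of 0.15 in the fit of all 12 arrays and 0.0314 in a fit of the 6 young arrays alone, where it was called. Among embryonic and regeneration genes 7 of 15 were higher and 8 lower (median -0.01), none called. The cardiac actin Actc1 differed by 1.22 (adjusted p = 0.17). Denervation genes were higher in 9 of 15 (median 0.09), none called. Chrnb1, a subunit of the muscle acetylcholine receptor, passed the adjusted p (0.0288) with a difference of 0.64, under the fold threshold. Ampd3 differed by 0.80 (adjusted p = 0.064) and Dach2, a repressor of denervation genes, by -0.93 (adjusted p = 0.14). Runx1, a transcription factor of denervated muscle, rose by 0.87 on 1 probe (adjusted p = 0.0472), while its brightest differed by 0.79 (adjusted p = 0.19).

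Calcium handling genes were lower in 25 of 32 (median -0.18), and 1 was called. This was Cacna2d4, an auxiliary calcium channel subunit, which gave -0.74, -0.58 and -0.77 in WT and -2.08, -1.97 and -1.82 in TauTKO (adjusted p = 0.0491). The fall was of 1 log2 unit or more between the nearest arrays. Camk2b, a calcium calmodulin kinase, differed by -0.52 and passed the adjusted p only (0.0265). Ryr1 (-0.26), Cacna1s (-0.30) and Atp2a1 (-0.22), the release channel, its voltage sensor and the fast calcium pump, did not pass the test. With quantile normalization the list's median was -0.07.

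Atrophy, ubiquitin ligase and autophagy genes were lower in 19 of 25 (median -0.22), and 2 were called, both lower. Besides Asb10 this was Fbxo32, the atrogin 1 ligase that rises in wasting muscle. It gave 3.02, 2.72 and 3.13 in WT and 2.13, 1.36 and 2.15 in TauTKO, and fell by -1.08 ± 0.20 (SE; adjusted p = 0.0415). TauTKO replicate 2 was the lowest. Trim63, its companion ligase MuRF1, differed by -0.27 (adjusted p = 0.4). Glucocorticoid targets, a list that also holds Fbxo32, were lower in 16 of 20 (median -0.23) with Fbxo32 as the only call, and Fkbp5 differed by -0.36 (adjusted p = 0.56). Circadian clock genes were lower in 12 of 19 (median -0.15) with no call, and Per2 differed by -0.61 (adjusted p = 0.68).

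In glucose and glycogen metabolism 9 genes were higher and 20 lower (median -0.08), with 1 call each way. Pdk3, a kinase that inhibits pyruvate dehydrogenase, gave -2.24, -2.17 and -2.04 in WT and -1.27, -0.97 and -0.88 in TauTKO, a rise of 1.11 ± 0.17 (SE; adjusted p = 0.0197). Prkab2, the beta 2 subunit of the energy sensor AMPK, gave 5.17, 5.20 and 5.50 in WT and 4.47, 4.48 and 4.27 in TauTKO, a fall of -0.88 ± 0.15 (SE; adjusted p = 0.0294). As for every called probe, the groups did not overlap for either gene. Fatty acid use genes were lower in 24 of 30 (median -0.25), none called. Plin3, a lipid droplet coat protein, gave 3.86, 3.75 and 3.50 in WT and 2.39, 2.80 and 2.75 in TauTKO, and its difference of -1.06 had an adjusted p of 0.070. Cyp27a1 (-0.89), Ephx2 (-0.88) and the carnitine transferase Cpt1b (-0.28) did not pass either.

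Complex I subunits, which carry electrons from NADH into the respiratory chain, were lower in 34 of 36 with a narrow range of -0.33 to 0.08 and a median of -0.20. No subunit was called, and for 19 the TauTKO arrays were all below the WT arrays, as for 14.5% of all genes. Ndufs7 differed most, by -0.33 (adjusted p = 0.28), and Ndufa6 by 0.08 (adjusted p = 0.8). The median was -0.09 after quantile normalization. Glutathione and oxidant defence genes were lower in 17 of 23 (median -0.16), and 2 were called, both lower. Besides Mgst1 this was Selenbp1, a selenium binding protein, which fell by -1.05 ± 0.20 (SE; adjusted p = 0.0472). Gsta4, which conjugates lipid aldehydes, differed by -0.58 (adjusted p = 0.09).

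**Figure D4:**
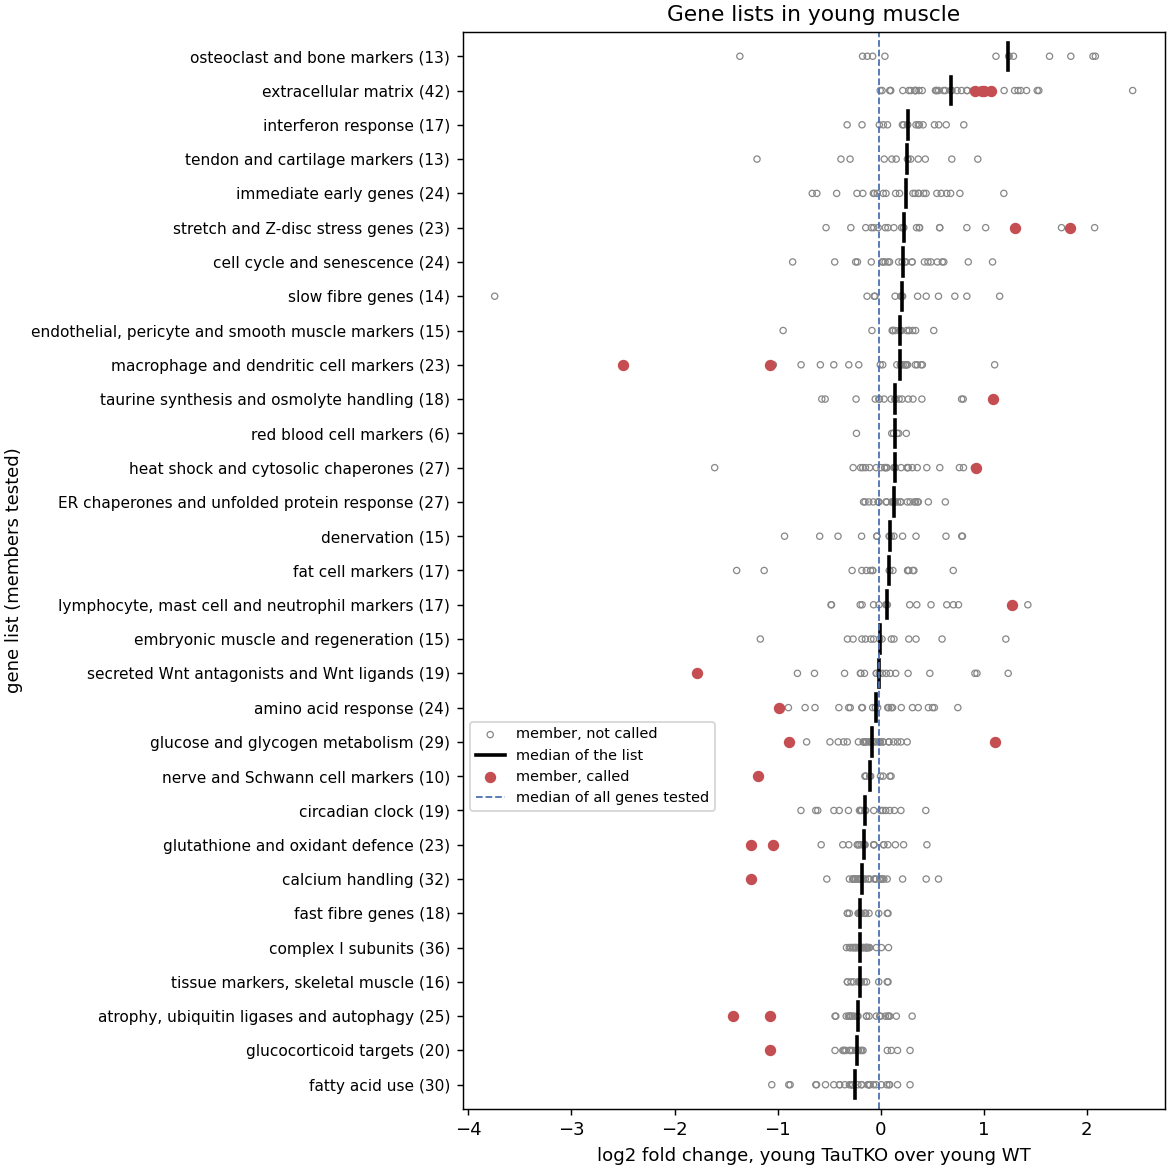
Log2 fold change of young TauTKO over young WT for the tested members of 31 gene lists, 1 point per gene by its brightest probe, with called members in red, the list median as a black bar and the median of all genes tested as a dashed line. Matrix genes lie to the right (median 0.68), complex I subunits in a tight band left of 0 (median -0.20), and Myl3 alone at -3.75.

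Heat shock proteins and cytosolic chaperones, which fold or protect other proteins, were higher in 20 of 27 (median 0.14), and 1 was called by its brightest probe. Hspa1l, an HSP70 of the same cluster as Hspa1a and Hspa1b, gave 1.76, 1.58 and 1.41 in WT and 2.59, 2.53 and 2.41 in TauTKO. It rose by 0.93 ± 0.12 (SE; adjusted p = 0.0134). Its relatives are close in sequence, so the probe may read more than 1 of them. Hspa1a differed by 0.91 but missed the threshold (adjusted p = 0.4). Dnaja4, an HSP40 partner of HSP70, was called on 1 probe, which gave 0.01, 0.21 and -0.14 in WT and 1.1, 1.23 and 0.94 in TauTKO. It rose by 1.06 ± 0.14 (SE; adjusted p = 0.0121), and its brightest probe differed by 0.80 (adjusted p = 0.0162), just under the fold threshold. Hspb7 and Cryab, small chaperones of sarcomeres, differed by 0.77 (adjusted p = 0.16) and 0.57 (adjusted p = 0.13), and Hsbp1l1 by -1.61 (adjusted p = 0.077).

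The promoters of the called chaperone genes were read from RefSeq (GRCm38.p6) as windows of 300 bases around each annotated start. They were searched on both strands for GAANNTTC, the core of the heat shock element, which reads the same on either strand. Of all 32851 RefSeq promoters, 7.86% held it. The Hspa1l promoter did not hold these letters, nor did 1 of the 2 Dnaja4 starts. The other Dnaja4 start, at chr9:54699309-54699608 on the plus strand, held it 2 times. It is shown because Dnaja4 was called, with the matches in capitals:
Dnaja4: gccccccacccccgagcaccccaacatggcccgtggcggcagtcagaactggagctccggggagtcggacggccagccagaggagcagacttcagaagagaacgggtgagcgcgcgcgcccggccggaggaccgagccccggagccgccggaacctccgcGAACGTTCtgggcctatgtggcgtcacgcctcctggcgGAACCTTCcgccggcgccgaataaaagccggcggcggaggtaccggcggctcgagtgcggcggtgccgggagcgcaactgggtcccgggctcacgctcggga
A match is a description of the letters and says nothing of binding.

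Chaperones of the endoplasmic reticulum and the unfolded protein response were higher in 20 of 27 (median 0.13), with no call. Xbp1, a transcription factor of that response, gave 4.34, 4.43 and 4.29 in WT and 5.04, 5.06 and 4.85 in TauTKO. The groups were clear of each other and the adjusted p was 0.0197, but the difference of 0.63 ± 0.09 (SE) was below the fold threshold. Hspa5, the chaperone BiP, differed by 0.33 (adjusted p = 0.21) and Atf4 by -0.11 (adjusted p = 0.66). In the amino acid response list 11 of 24 genes were higher and 13 lower (median -0.04), and 1 was called. Ddit4l, an inhibitor of mTOR signalling, gave 4.53, 4.11 and 4.48 in WT and 3.31, 3.43 and 3.43 in TauTKO, and fell by -0.98 ± 0.14 (SE; adjusted p = 0.0176). Nupr1 passed the adjusted p (0.0326) with 0.46. Asns, the asparagine synthetase, differed by 0.52 (adjusted p = 0.43), Prodh, which degrades proline, by -0.89 (adjusted p = 0.053) and the carrier Slc7a8 by -0.97 (adjusted p = 0.09).

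Macrophage and dendritic cell markers were mixed. Of 23 genes 14 were higher and 9 lower (median 0.19), and the 2 called, Retnla and Cbr2, were both lower. Cbr2, a carbonyl reductase of resident macrophages and lung, gave 4.30, 4.02 and 4.20 in WT and 2.88, 3.33 and 3.09 in TauTKO, and fell by -1.07 ± 0.18 (SE; adjusted p = 0.0283). The lectins Cd209a and Cd209d differed by -1.04 (adjusted p = 0.075) and -0.58 (adjusted p = 0.22). Trem2 and Cd68 pointed the other way, by 1.11 (adjusted p = 0.1) and 0.41 (adjusted p = 0.1). Summed signals were 144 to 173 in WT and 113 to 136 in TauTKO, and thus ran against the list's median. These sums include Retnla and Cbr2, so they do not stand for the list as a whole. Cd163 was not well above background in either group. Ear12, a ribonuclease of the eosinophil-associated family with close copies, lay outside the list. It gave -1.33, -0.35 and -1.40 in WT and -2.26, -2.52 and -3.02 in TauTKO (adjusted p = 0.0385). WT replicate 2 was the highest array for Ear12 as for Retnla.

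Lymphocyte, mast cell and neutrophil markers were higher in 11 of 17 (median 0.07), with summed signals of 22.3 to 25.8 in WT and 23.8 to 27.7 in TauTKO. Vpreb3, a pre-B cell protein, was the only call. The defining genes Cd3d, Cd3g, Ms4a2 and Ngp were not well above background, and the mast cell proteases Cpa3 and Cma1 differed by 0.71 (adjusted p = 0.12) and 0.76 (adjusted p = 0.1). Interferon response genes were higher in 14 of 17 (median 0.26) with no call, and Ifi44 and Irf7 differed by 0.81 (adjusted p = 0.57) and 0.41 (adjusted p = 0.87). Immediate early genes were higher in 16 of 24 (median 0.25), but no member had groups that did not overlap and none was called. Without TauTKO replicate 3 this median was -0.11. Fat cell markers were higher in 9 of 17 (median 0.08; summed signals 340 to 401 and 333 to 417) with no call and Ucp1 not well above background, and the lipase Ces1d differed by -1.40 (adjusted p = 0.15). Red blood cell markers were higher in 5 of 6 (median 0.14; summed signals 315 to 493 and 346 to 452) with no call, and Hba-a1 differed by 0.13 (adjusted p = 0.92). Nerve and Schwann cell markers were lower in 7 of 10 (median -0.10; summed signals 13.9 to 19.7 and 13.9 to 18.8), with Gfap, Nefl and Nefm not well above background. The only call was Cntnap2, a neurexin-like protein of myelinated axons, and its second probe differed by -0.48 without being called.

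Old mice of both genotypes were compared in the same way, to ask whether the young differences recur at 18 months. On the same probes 800, or 2.12%, were called in old mice. Of the 147 young calls 100 were also called in old mice, 54 of the higher and 46 of the lower ones, and 142 had the same sign. Both comparisons used the same estimate of spread for each probe, so their calls are not independent. The 147 also hold repeat probes, since 9 genes had more than 1 called probe. The median size of the 147 was 1.15 in young and 1.2 in old mice, and 77 were larger in old mice. For Rab15 the difference was 2.54 in young and 4.19 in old mice, for Srgap3 1.6 and 3.05, and for Fbxo2 1.5 and 2.75.

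In 23 of the called probes, of 15 named genes and some unnamed transcripts, the old difference was less than 0.5 of the young one or opposite in sign. They were picked for a called young and a small old difference, so this count is a description. Retnla differed by -2.50 in young and 0.20 in old mice, Ear12 by -1.57 and 0.47, and Pth1r by 0.94 and -0.13. Ms4a8a and Mucl1 are also among the 23, but signals at background leave their differences without a size. In old WT the mean Retnla signal was 2.26, against 4.35 in young WT, while TauTKO gave 1.85 in young and 2.46 in old mice. Igfbp5, a binding protein of insulin-like growth factors, fell by -0.91 ± 0.12 (SE; adjusted p = 0.0136) in young mice and differed by -0.30 in old mice. The difference between ages was itself tested as an interaction of genotype and age. No probe passed an adjusted p of 0.05 by limma (smallest 0.127). Of all 37823 tested probes 2075 passed unadjusted, 41 of them among the 147. For Retnla the interaction had an adjusted p of 0.44. The 147, Retnla among them, were picked by the young difference, which is part of the interaction. Their unadjusted values are therefore only a description. Age and slide cannot be told apart in this test.

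**Figure D5:**
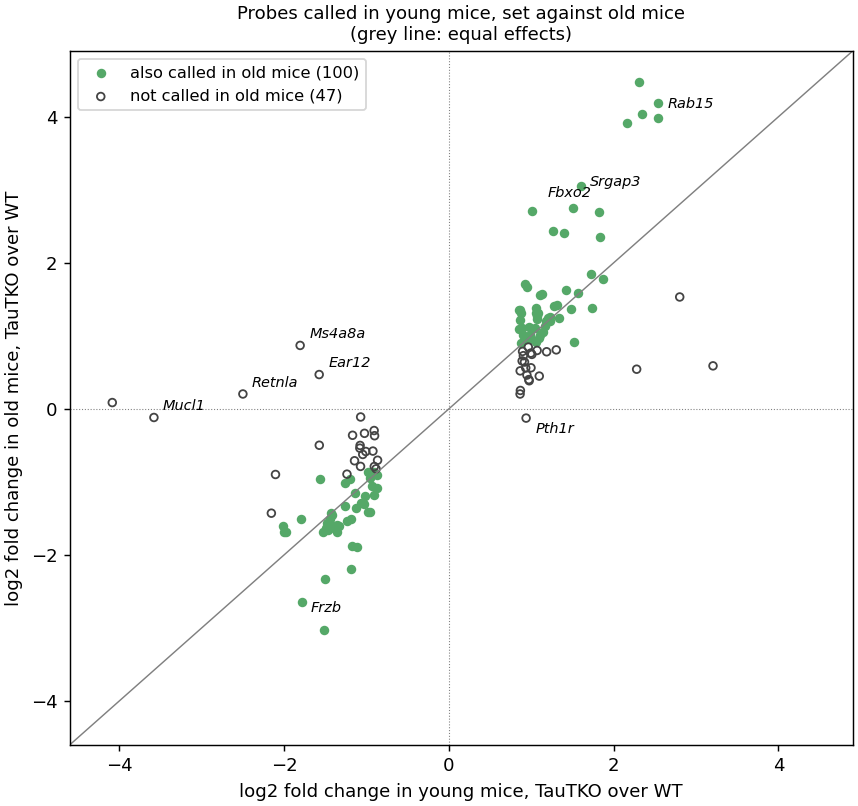
Log2 fold change of TauTKO over WT in young mice (horizontal axis) and in old mice (vertical axis) for the 147 probes called in young mice, with the grey line at equal effects. The 100 probes also called in old mice (green) have old differences of the same sign, and Retnla and Ear12 lie above 0 in old mice. Points of Mucl1 and Ms4a8a rest on signals at background in part of the arrays.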

How the data were processed

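The authors hybridised Cy3-labelled cRNA from each sample to SurePrint G3 Mouse 8x60K arrays (1 colour) and extracted spot intensities with Agilent Feature Extraction 10.10.1.1. The deposited scanner files hold background-subtracted processed intensity per spot. The series table deposited beside them holds the same intensities rounded to whole numbers, with its scale as in the scanner files and no further normalization seen. Its columns matched the young samples' own files within 0.51 for at least 99.3% of probes. It was used only as an alternative.

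Processed intensity was divided by each array's 75th percentile over non-control spots and put on the log2 scale. Control spots and outlier spots were left out and spots of 1 probe averaged. Group means of all 12 arrays (4 groups of 3) were fitted with limma 3.58.1 in R 4.3.3 (lmFit and eBayes), and contrasts were adjusted by Benjamini-Hochberg. The old arrays thereby share in the estimate of spread. The fit was tested on simulated data. Probes were named by the array's annotation, updated through RefSeq, which matched 27509 of 29150 RefSeq accessions.

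The genes named were Slc6a6 and the 15 called genes with the largest difference in each direction. These 15 were taken among probes measured on all 6 young arrays and without overlap between the genotypes. Also named were called members of 31 gene lists, members that head a list, and called probes not well above background on any array of 1 group. All other genes, uncalled list members included, were chosen after their values were seen. A list gene is represented by its brightest tested probe, and its members are described by counts and a median. The members and lists were chosen with earlier results of these data known. Nothing in the labels says whether a sample pools animals or ties replicate numbers across groups. With 3 arrays in each group, their number limits the precision. Alternatives were other scalings, background corrections, filters, folds and tests, blocks for replicate number and row on the slide, and fits without 1 array.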

Additional observations from a re-analysis of the deposited data

How the results depend on the processing

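The 147 calls (77 higher, 70 lower) moved with the settings. A fit of the 6 young arrays alone gave 88 (42 and 46), no filter on dim probes 75 (35 and 40), array weights 308 (162 and 146) and a block for the row on the slide 44 (13 and 31). The methods' unpaired test gave 425 (241 and 184) before adjustment and, of 5650 probes at an unadjusted p under 0.05, 0 (0 and 0) after Benjamini-Hochberg, where 1 probe passed without the fold. A fold of 1.5 gave 285 (150 and 135), and a fold of 2 gave 103, of which 48 were higher. Without 1 young array the counts ran from 23 to 93, from 8 to 43 for higher and from 13 to 50 for lower probes. With the replicate number as a block within each age, limma called 0 (0 and 0), with 4860 probes at an unadjusted p under 0.05 and a smallest adjusted p of 0.0669. Deviations of same-numbered arrays from their group means correlated at 0.0182, 0.0491 and 0.322, and only number 3 correlated best with its own. With 3 arrays in each group these values cannot settle whether the numbers pair the samples. The other 8 alternatives (2 filters, 3 scalings or background corrections, outlier spots kept, intensity trend and the deposited table) gave 129 to 219 calls. The deposited table gave 147, of which 145 were the same probes. At an adjusted p under 0.05 without a fold the count of 353 was 25 without TauTKO replicate 2 and 1368 with array weights. The interaction had 0 calls also over probes well above background on all 12 arrays. Of 179 gene differences none changed sign under the alternatives run (23 for 174 of them and 22 for 5), while the medians of 3 gene lists close to 0 (embryonic, amino acid response and Wnt) did under another scaling. The cause of these shifts was not tested.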
